A study of Mus musculus with 36 samples.

Results

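The 30 genes described here make sterols and fatty acids or control that synthesis. They were chosen by symbol from the 54532 genes of the count table as known targets or regulators of the sterol regulatory element-binding proteins (SREBPs). The choice was made with earlier results of these data known. Shares of all genes set beside these members are therefore description and not a test. The members comprise 16 enzymes of sterol synthesis, 6 regulators including a sterol carrier, and 8 enzymes of fatty acid synthesis. All 30 passed the filter on low counts. RNA sequencing covered whole brain of wild-type C57BL/6 mice at day 19, when experimental autoimmune encephalomyelitis (EAE), a mouse model of multiple sclerosis, was at its peak. EAE mice had been immunized under the skin with MOG35-55, a myelin peptide, emulsified in complete Freund's adjuvant (CFA), and had received pertussis toxin (PTX). Farnesol EAE mice (n = 10) were gavaged daily with 100 mg/kg of trans, trans-farnesol dissolved in corn oil, vehicle EAE mice (n = 9) with corn oil alone, untreated EAE mice (n = 9) received neither, and naive mice (n = 8) were healthy. No group received CFA and PTX alone, so effects of these agents and of the disease cannot be told apart in any comparison with naive brain. The labels call the libraries of a group replicates without saying whether each came from its own mouse, so the tests measure the spread between libraries.

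Cells build cholesterol from acetyl-CoA through mevalonate, isoprenoids, squalene and lanosterol. Farnesol is the alcohol of farnesyl diphosphate, the isoprenoid from which squalene is made. SREBPs are transcription factors held in the endoplasmic reticulum membrane with their escort SCAP. When sterols are scarce they travel to the Golgi, are cleaved and enter the nucleus, and INSIG proteins retain them when sterols are plentiful. SREBP2, encoded by Srebf2, acts mainly on sterol genes, and SREBP1, encoded by Srebf1, mainly on fatty acid genes. The brain makes nearly all of its own cholesterol, in astrocytes and in oligodendrocytes, which put much of it into myelin.

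Promoters of 25 of the 30 members were listed from RefSeq (GRCm38.p6). None was listed for Sqle, Stard4 and the fatty acid enzymes Scd1, Scd2 and Fads1, so these were not searched. The listed promoters were searched over the 250 bases before each gene start because SREBPs work there together with the CCAAT-binding factor NF-Y. The letters CCAAT, on either strand, stood in 14 of 15 sterol enzyme promoters, 4 of 5 regulator promoters and 1 of 5 fatty acid enzyme promoters. Of all 27025 genes listed, 37.5% held them. The sterol regulatory element TCACNCCAC stood in 1 of the 15 sterol enzyme promoters, that of Hmgcs1, against 1.22% of all genes. The looser form TCACNNCAC, which includes it, stood in 4 of 15 (Hmgcs1, Msmo1, Hsd17b7 and Dhcr7), in none of the 5 regulator and 5 fatty acid enzyme promoters, and in 3.63% of all genes. The GC box GGGCGG stood in 14 of 15, 5 of 5 and 2 of 5 promoters of the 3 classes and in 35.4% of all genes. The E-box CACGTG stood in 3 of 15, 2 of 5 and 0 of 5 and in 6.86% of all genes. The last 160 bases before the start are shown on the gene's strand for 3 sterol enzymes that fell in every EAE group, for Tm7sf2, a sterol enzyme that did not, and for both kinds of fatty acid promoter, with and without the box. Capitals mark CCAAT or its reverse complement ATTGG, and TCACNNCAC.
Hmgcs1, chr13:119690191-119690350, plus strand: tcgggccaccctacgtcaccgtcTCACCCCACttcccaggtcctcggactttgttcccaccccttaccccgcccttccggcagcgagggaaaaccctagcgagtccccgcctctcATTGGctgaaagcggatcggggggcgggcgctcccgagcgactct
Hsd17b7, chr1:169969206-169969365, minus strand: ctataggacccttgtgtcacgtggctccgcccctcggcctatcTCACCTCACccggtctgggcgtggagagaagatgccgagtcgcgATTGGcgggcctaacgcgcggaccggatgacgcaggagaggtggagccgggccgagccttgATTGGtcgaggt
Cyp51, chr5:4104698-4104857, minus strand: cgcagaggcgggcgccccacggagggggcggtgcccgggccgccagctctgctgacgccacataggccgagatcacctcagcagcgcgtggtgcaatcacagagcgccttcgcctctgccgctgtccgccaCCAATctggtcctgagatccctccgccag
Tm7sf2, chr19:6067851-6068010, minus strand: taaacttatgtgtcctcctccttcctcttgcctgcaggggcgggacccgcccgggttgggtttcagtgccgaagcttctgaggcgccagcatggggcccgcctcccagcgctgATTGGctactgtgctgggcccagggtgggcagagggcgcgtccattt
Fasn, chr11:120824548-120824707, minus strand: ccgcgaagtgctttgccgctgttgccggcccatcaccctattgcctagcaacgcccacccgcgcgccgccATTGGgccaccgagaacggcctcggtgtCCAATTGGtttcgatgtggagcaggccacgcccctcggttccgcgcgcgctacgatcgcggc
Fads2, chr19:10101504-10101663, minus strand: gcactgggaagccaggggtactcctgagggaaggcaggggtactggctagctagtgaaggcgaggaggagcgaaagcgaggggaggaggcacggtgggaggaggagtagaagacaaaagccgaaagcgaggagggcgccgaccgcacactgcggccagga
The run CCAATTGG of Fasn holds overlapping boxes, on the strand of the gene from position -62 and on the opposite strand from -59, counted from -1 at the base before the start. The 4 sterol enzymes that passed the test in no comparison with naive brain (Pmvk, Tm7sf2, Ebp and Sc5d) also held CCAAT within the 250 bases. The RefSeq starts used for Tm7sf2 and Fads2 lie inside these genes as bounded by GENCODE M21, where they begin at 6068373 and 10101746. Their windows are thus wholly within the annotated genes, and those of Hsd17b7 and Cyp51 are so in part. Absence of the box from the Fads2 window therefore does not cover the bases before its GENCODE start. These are matches of letters and were not related to the expression values by any test.

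Total counts per library were 14.71 M to 24.21 M (M, 1e6 counts). Libraries stood in sets that the labels do not name, by the ribosomal RNA (rRNA) gene CT010467.1, at 1282 to 2780 counts per 1e6 counts (CPM) in 21 libraries and 5084 to 17668 CPM in 15. The low rRNA set held farnesol replicates 1 to 3 and all vehicle and untreated libraries, and the high rRNA set held farnesol replicates 4 to 10 and all naive libraries. Vehicle and untreated EAE were thus set against naive brain wholly across these sets, where disease and set cannot be told apart. Farnesol EAE could be compared with naive brain inside the high set, with 7 and 8 libraries. In addition, 8 libraries (vehicle replicates 3 to 5 and untreated replicates 1 to 5) carried 3.86 to 12.3 CPM of Sbp, at most 0.15 CPM elsewhere. Another 3 libraries (farnesol 2, untreated 3 and naive 4) were low in cerebellar granule cell genes. Neuronal and oligodendrocyte genes were present in every library, and none of the marker genes checked was at 0 throughout a group.

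Transcripts of these genes were lower in EAE brain than in naive brain in both branches, and the changes that passed the test ran from -26.4% to -9.08%. Of the 30 members, 21 fell and none rose in farnesol EAE, 19 fell and none rose in vehicle EAE, and 20 fell and none rose in untreated EAE, by edgeR's quasi-likelihood test at an adjusted p below 0.05. Among all 18438 genes tested, 16.3% fell and 17.9% rose in farnesol EAE, 15.2% fell and 16.3% rose in vehicle EAE, and 11.3% fell and 13.6% rose in untreated EAE. The median log2 change of the 30 members was -0.27, -0.23 and -0.25 in farnesol, vehicle and untreated EAE, where that of all genes was 0.005, 0.004 and -0.005. These comparisons share the naive libraries, so they are not independent of each other. As the members were chosen with earlier results known, the shares of all genes beside them make no test of the list. With the library set as a term in the model, no member was called in vehicle or untreated EAE and the medians were -0.12 and -0.10. The set was estimated from the 3 and 7 farnesol libraries alone. The share of all genes called with this term is not given here, so the absence of calls is no result about the members. Inside the high rRNA set, 18 members fell and 1 rose in farnesol EAE, with a median of -0.20, where 13.3% of all genes tested fell and 14.9% rose. In whole tissue, fewer cells of a type and less RNA per cell cannot be told apart.

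**Figure D1:**
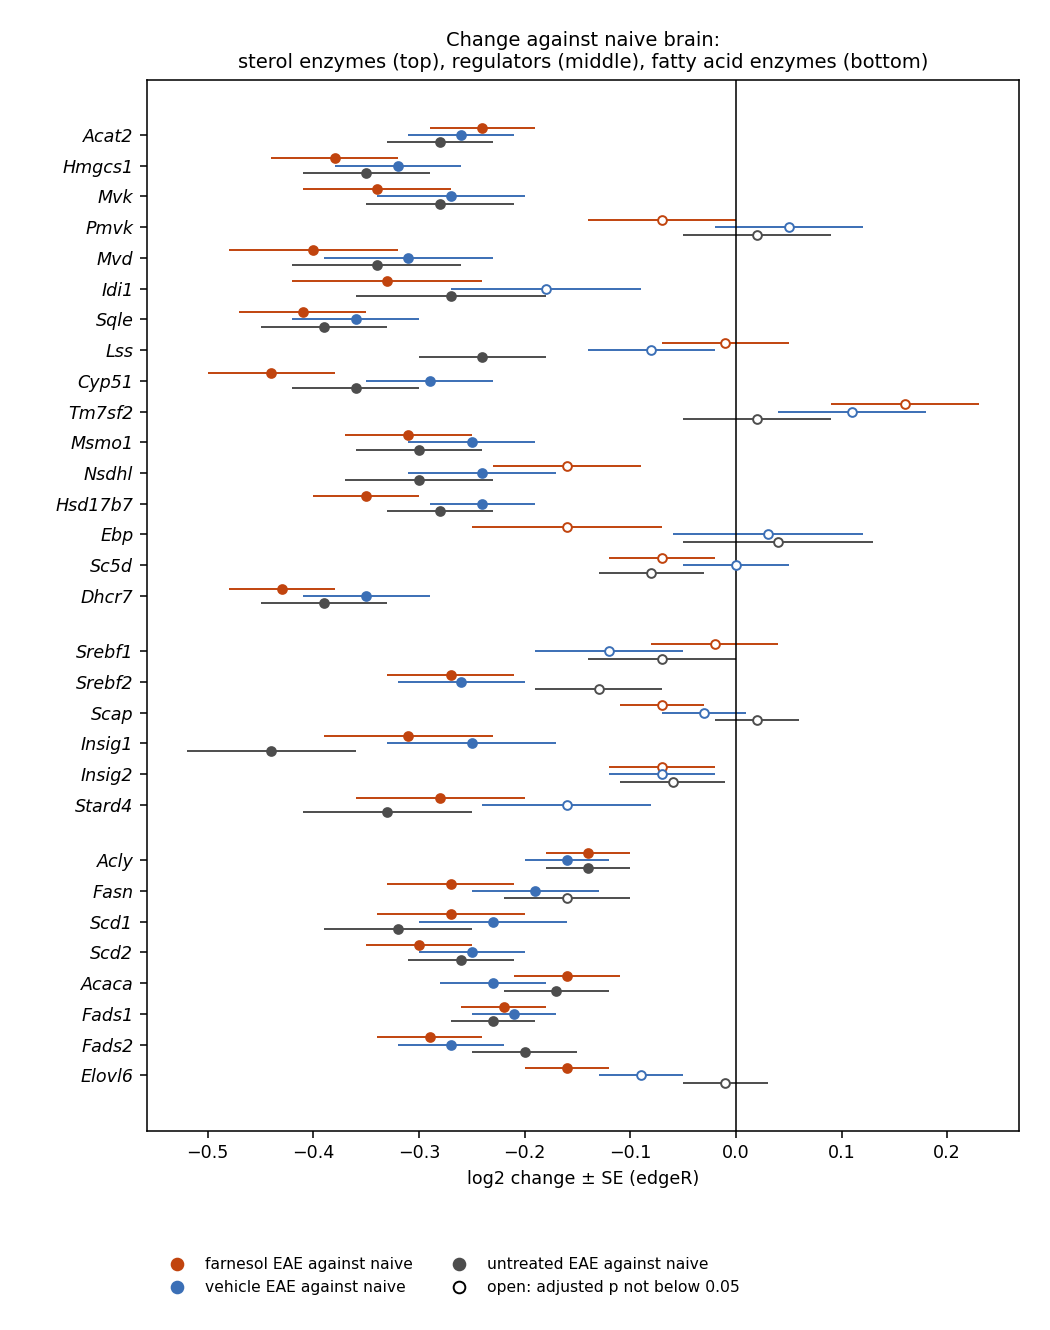
Log2 change of each member against naive brain (x axis, edgeR) with its SE as a bar, for farnesol EAE (orange), vehicle EAE (blue) and untreated EAE (grey); genes run down the page by class, filled points passed at an adjusted p below 0.05 and open points did not. Most points lie between -0.44 and 0, and Pmvk, Tm7sf2, Ebp, Sc5d, Srebf1, Scap and Insig2 are open in all 3 comparisons.

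Most enzymes of sterol synthesis were lower in EAE brain. Among all genes tested, 16.3%, 15.2% and 11.3% fell in farnesol, vehicle and untreated EAE. Of the sterol enzymes, 10 of 16 fell in farnesol EAE (median log2 change -0.32), 10 of 16 in vehicle EAE (median -0.25) and 12 of 16 in untreated EAE (median -0.28). The 9 that fell in every EAE group included Acat2 and Hmgcs1, which condense acetyl-CoA units, Mvk and Mvd, which phosphorylate and decarboxylate on the way to isoprenoids, and Sqle, which oxidizes squalene. With them fell Cyp51, Msmo1 and Hsd17b7, which strip methyl groups from lanosterol and its products, and Dhcr7, which reduces the last precursor to cholesterol. The median log2 change was -0.34 over the 6 genes of early steps, from Acat2 to Idi1, and -0.24 over the 10 of late steps, from Sqle to Dhcr7, in farnesol EAE. It was -0.26 and -0.24 in vehicle EAE, and -0.28 and -0.29 in untreated EAE.

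Dhcr7 (ENSMUSG00000058454, chr7:143823145-143848410, GRCm38) had the smallest p of the 16. It measured 25.6 to 37.3 CPM (median 31.5) in farnesol EAE, 29.5 to 35.9 CPM (median 34.2) in vehicle EAE, 28.9 to 38.0 CPM (median 32.2) in untreated EAE and 39.8 to 44.4 CPM (median 42.9) in naive brain. Every EAE library lay below every naive library. Dhcr7 fell by 25.8% in farnesol EAE (log2 -0.43 ± 0.05, edgeR adjusted p = 3.56e-07), by 21.5% in vehicle EAE (-0.35 ± 0.06, adjusted p = 1.19e-05) and by 23.9% in untreated EAE (-0.39 ± 0.06, adjusted p = 3.45e-06).

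Sqle (ENSMUSG00000022351, chr15:59315077-59331192), the first oxygen-requiring enzyme of the pathway, measured 46.3 to 65.4 CPM (median 61.0) in farnesol EAE, 53.5 to 71.3 CPM (median 62.4) in vehicle EAE, 53.9 to 69.3 CPM (median 60.4) in untreated EAE and 75.5 to 86.0 CPM (median 80.0) in naive brain. Again no EAE library reached the lowest naive library. Sqle fell by 24.9% in farnesol EAE (log2 -0.41 ± 0.06, edgeR adjusted p = 1.07e-06) and by 21.8% in vehicle EAE (-0.36 ± 0.06, adjusted p = 1.56e-05), and the untreated group was 23.7% below naive.

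Hsd17b7 (ENSMUSG00000026675, chr1:169949535-169969241), a ketoreductase of C4 demethylation, measured 21.3 to 26.4 CPM (median 23.3) in farnesol EAE, 22.9 to 28.0 CPM (median 26.2) in vehicle EAE, 21.7 to 26.8 CPM (median 24.9) in untreated EAE and 27.4 to 31.9 CPM (median 30.4) in naive brain. All farnesol and untreated libraries lay below every naive library, and 6 of 9 vehicle libraries did. The log2 change was -0.35 ± 0.05 in farnesol EAE (edgeR adjusted p = 1.26e-06), -0.24 ± 0.05 in vehicle EAE (adjusted p = 0.000344) and -0.28 ± 0.05 in untreated EAE (adjusted p = 7.72e-05).

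Cyp51 (ENSMUSG00000001467, chr5:4081145-4104746), the lanosterol demethylase, measured 47.3 to 75.0 CPM (median 63.8) in farnesol EAE, 59.6 to 77.6 CPM (median 73.2) in vehicle EAE, 60.7 to 73.5 CPM (median 64.8) in untreated EAE and 79.6 to 90.7 CPM (median 87.0) in naive brain. The EAE and naive ranges did not overlap. Cyp51 fell by 26.3% in farnesol EAE (log2 -0.44 ± 0.06, edgeR adjusted p = 1.73e-06), the largest fall among the sterol enzymes in that comparison, by 18.0% in vehicle EAE (-0.29 ± 0.06, adjusted p = 0.000624) and by 22.0% in untreated EAE (-0.36 ± 0.06, adjusted p = 7.2e-05). It shares 166 exon bases with Akap9 on the opposite strand. The use of strand in counting is not given in the sources used here, so reads of that stretch cannot be assigned.

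**Figure D2:**
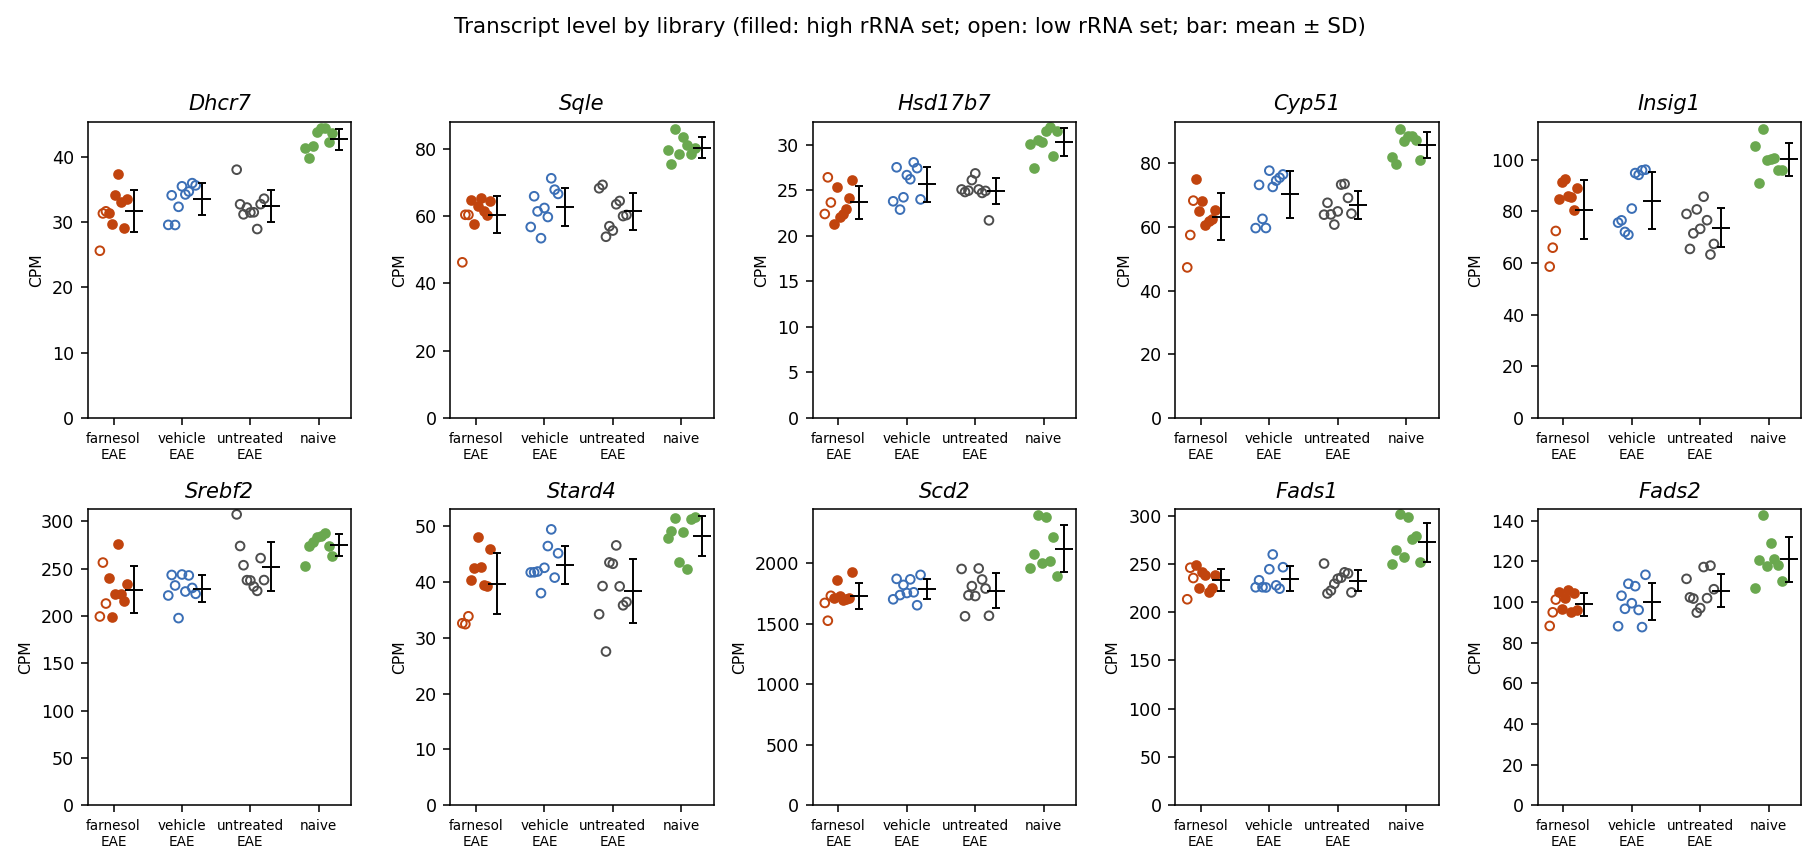
CPM in every library (y axes start at 0) for the 4 sterol enzymes, 3 regulators and 3 fatty acid enzymes of smallest p, with farnesol EAE, vehicle EAE, untreated EAE and naive groups from left to right; filled points are high rRNA set libraries, open points low rRNA set libraries, and the bar is mean ± SD. Dhcr7, Sqle and Cyp51 show no overlap between EAE and naive libraries, and Insig1 and Stard4 in farnesol EAE are lower in the 3 open points than in the 7 filled ones.

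The remaining fallen sterol enzymes moved by similar sizes. Hmgcs1, the cytosolic HMG-CoA synthase, measured 122 to 197 CPM in farnesol EAE, 152 to 199 CPM in vehicle EAE, 159 to 192 CPM in untreated EAE and 206 to 243 CPM in naive brain, with no overlap between any EAE group and the naive group. Its log2 change was -0.38 ± 0.06, -0.32 ± 0.06 and -0.35 ± 0.06 in farnesol, vehicle and untreated EAE. Mvd (-0.40 ± 0.08, -0.31 ± 0.08, -0.34 ± 0.08), Mvk (-0.34 ± 0.07, -0.27 ± 0.07, -0.28 ± 0.07), Msmo1 (-0.31 ± 0.06, -0.25 ± 0.06, -0.30 ± 0.06) and Acat2 (-0.24 ± 0.05, -0.26 ± 0.05, -0.28 ± 0.05) followed in the same group order. Without the libraries that carried Sbp, Mvk did not pass in untreated EAE (-0.20, edgeR adjusted p = 0.147). Idi1, which isomerizes the isoprenoid unit, fell in farnesol (-0.33 ± 0.09) and untreated EAE (-0.27 ± 0.09), and its change of -0.18 ± 0.09 in vehicle EAE did not pass (edgeR adjusted p = 0.116). Nsdhl, a dehydrogenase of C4 demethylation, fell in vehicle (-0.24 ± 0.07) and untreated EAE (-0.30 ± 0.07) and did not pass in farnesol EAE (-0.16 ± 0.07, adjusted p = 0.0693). Without farnesol replicate 6 or naive replicate 8 the change of Nsdhl in farnesol EAE was -0.19 and passed (adjusted p = 0.0362 and 0.0459).

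A few sterol enzymes stood apart from the rest. Lss, which closes squalene epoxide into lanosterol, passed in untreated EAE, where it fell (-0.24 ± 0.06, edgeR adjusted p = 0.00311), with -0.08 ± 0.06 in vehicle EAE and -0.01 ± 0.06 in farnesol EAE. It measured 28.8 to 42.1 CPM (median 37.3) in farnesol EAE, 30.3 to 40.0 CPM (median 35.0) in vehicle EAE, 27.9 to 36 CPM (median 31.7) in untreated EAE and 34.2 to 40.8 CPM (median 37.6) in naive brain. Thus 8 of 9 untreated libraries, 4 of 9 vehicle libraries and 1 of 10 farnesol libraries lay below every naive library. Tm7sf2, a sterol C14 reductase, was the one member with a positive change in all 3 comparisons, 0.16 ± 0.07 in farnesol EAE (adjusted p = 0.0554), 0.11 ± 0.07 in vehicle EAE and 0.02 ± 0.07 in untreated EAE. Inside the high rRNA set it rose in farnesol EAE (0.19 ± 0.07, adjusted p = 0.0337), with 17.0 to 21.7 CPM against 14.2 to 18.2 CPM in naive brain. Tm7sf2 also passed over all libraries without farnesol replicate 8, farnesol replicate 9 or naive replicate 3 (0.18 each, edgeR adjusted p = 0.0473, 0.0386 and 0.0489). It passed as well with RLE scaling (0.17, adjusted p = 0.0494) and with only these groups in the fit (0.17, adjusted p = 0.0295). With a filter of at least 1 CPM in at least 8 libraries it also passed (0.18, adjusted p = 0.0335). Tm7sf2 shares 532 exon bases with Vps51 on the same strand, so its counts are uncertain there. Pmvk (phosphomevalonate kinase), Ebp (a sterol isomerase) and Sc5d (a sterol desaturase) passed in no comparison with naive brain, with changes between -0.16 and 0.05.

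Among the regulators, 3 of 6 fell in farnesol EAE, 2 in vehicle EAE and 2 in untreated EAE, where 16.3%, 15.2% and 11.3% of all genes fell. The regulator medians were -0.17, -0.14 and -0.10. Insig1, the sterol-sensing retention protein and itself an SREBP target, was the one that fell in every EAE group. Srebf2, the SREBP of the sterol genes, fell in farnesol and vehicle EAE, and Stard4, which carries sterols between membranes, fell in farnesol and untreated EAE. Srebf1, Scap and Insig2 passed in no comparison.

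Insig1 (ENSMUSG00000045294, chr5:28071363-28078662) measured 58.6 to 92.5 CPM (median 85.1) in farnesol EAE, 71.0 to 96.2 CPM (median 81.1) in vehicle EAE, 63.3 to 85.7 CPM (median 73.3) in untreated EAE and 90.9 to 112 CPM (median 100.0) in naive brain. All untreated libraries lay below every naive library, as did 8 of 10 farnesol and 5 of 9 vehicle libraries. Insig1 fell by 19.5% in farnesol EAE (log2 -0.31 ± 0.08, edgeR adjusted p = 0.00172), by 15.9% in vehicle EAE (-0.25 ± 0.08, adjusted p = 0.0131) and by 26.4% in untreated EAE (-0.44 ± 0.08, adjusted p = 7.86e-05). Inside the farnesol group its level differed by library set, at 58.6, 66.0 and 72.5 CPM in replicates 1 to 3 and 80.5 to 92.5 CPM in the 7 libraries of the high set. The vehicle and untreated groups, both wholly in the low set, spanned 71.0 to 96.2 CPM and 63.3 to 85.7 CPM. Set and treatment cannot be told apart across these groups, so whether the split extends to them was not tested. Inside the high set Insig1 fell by 0.20 ± 0.05 on the log2 scale in farnesol EAE (adjusted p = 0.0029). With the set as a term the Insig1 change in vehicle EAE was 0.16 (adjusted p = 0.455). Without the libraries that carried Sbp it was -0.17 in vehicle EAE and did not pass (adjusted p = 0.147).

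Srebf2 (ENSMUSG00000022463, chr15:82147181-82205379) measured 199 to 276 CPM (median 223) in farnesol EAE, 198 to 244 CPM (median 230) in vehicle EAE, 227 to 307 CPM (median 238) in untreated EAE and 253 to 288 CPM (median 276) in naive brain. All 9 vehicle libraries, 8 of 10 farnesol libraries and 5 of 9 untreated libraries lay below every naive library. The log2 change was -0.27 ± 0.06 in farnesol EAE (edgeR adjusted p = 0.000338), -0.26 ± 0.06 in vehicle EAE (adjusted p = 0.000592) and -0.13 ± 0.06 in untreated EAE, which did not pass (adjusted p = 0.105). Untreated replicate 1 held the highest value, and without it the change in untreated EAE was -0.17 and passed (adjusted p = 0.0202).

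Stard4 (ENSMUSG00000024378, chr18:33199355-33213862) measured 32.4 to 48.1 CPM (median 39.9) in farnesol EAE, 38.0 to 49.4 CPM (median 41.9) in vehicle EAE, 27.5 to 46.5 CPM (median 39.2) in untreated EAE and 42.3 to 51.6 CPM (median 49.0) in naive brain. Every EAE group overlapped the naive group. The log2 change was -0.28 ± 0.08 in farnesol EAE (edgeR adjusted p = 0.00489), -0.16 ± 0.08 in vehicle EAE (adjusted p = 0.113) and -0.33 ± 0.08 in untreated EAE (adjusted p = 0.00232). As with Insig1, the farnesol libraries of the low set were lowest, at 32.6, 32.4 and 33.9 CPM against 39.2 to 48.1 CPM in the high set. Inside the high set the change was -0.17 ± 0.06 (adjusted p = 0.0275). With the set as a term it was 0.04 in untreated EAE (adjusted p = 0.913).

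Srebf1, the SREBP of the fatty acid genes, measured 61.0 to 88.6 CPM in farnesol EAE, 58.3 to 86.4 CPM in vehicle EAE, 63.9 to 79.5 CPM in untreated EAE and 64.1 to 78.4 CPM in naive brain. Its changes were -0.02 ± 0.06, -0.12 ± 0.07 and -0.07 ± 0.07 in farnesol, vehicle and untreated EAE. Vehicle replicate 4 held the highest value of its group, and without it the vehicle change was -0.17 and passed (edgeR adjusted p = 0.0263). Srebf1 shares 109 exon bases with Rai1 on the opposite strand. Scap changed by -0.07 ± 0.04, -0.03 ± 0.04 and 0.02 ± 0.04 in the same order, passing in farnesol EAE when replicate 7 was left out (-0.09, adjusted p = 0.0459). Insig2 changed by -0.07 ± 0.05, -0.07 ± 0.05 and -0.06 ± 0.05.

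Most enzymes of fatty acid synthesis were lower in EAE brain as well. All 8 fell in farnesol EAE (log2 -0.30 to -0.14, median -0.24), 7 in vehicle EAE (median -0.22) and 6 in untreated EAE (median -0.18). Among all genes tested, 16.3%, 15.2% and 11.3% fell in the same order. Scd1, Scd2, Acaca, Acly, Fads1 and Fads2 fell in every EAE group. Without the libraries that carried Sbp, Acly (-0.13, edgeR adjusted p = 0.116) and Fads2 (-0.13, adjusted p = 0.219) did not pass in untreated EAE. Neither did Scd1 in vehicle EAE (-0.20, adjusted p = 0.0537). Fasn, the fatty acid synthase, fell in farnesol (-0.27 ± 0.06) and vehicle EAE (-0.19 ± 0.06) and Elovl6, which lengthens palmitate, in farnesol EAE (-0.16 ± 0.04). Inside the high rRNA set 5 of the 8 fell in farnesol EAE, where 13.3% of all genes tested fell. There Acly (-0.10 ± 0.04, edgeR adjusted p = 0.111), Acaca (-0.13 ± 0.06, adjusted p = 0.0973) and Elovl6 (-0.12 ± 0.05, adjusted p = 0.0599) did not pass.

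Scd2 (ENSMUSG00000025203, chr19:44293674-44306864), the main stearoyl-CoA desaturase of brain, was by far the most abundant member per transcript length, at 388 ± 35.1 CPM per kb of exon in naive brain (SD, n = 8). Fads1 at 56.6 ± 4.21 and Scd1 at 55.3 ± 7.69 CPM per kb came next and did not differ beyond their spread. It measured 1526 to 1931 CPM (median 1714) in farnesol EAE, 1654 to 1905 CPM (median 1761) in vehicle EAE, 1563 to 1958 CPM (median 1792) in untreated EAE and 1898 to 2404 CPM (median 2051) in naive brain. The groups touched at their ends, with 9 of 10 farnesol, 8 of 9 vehicle and 7 of 9 untreated libraries below every naive library. Scd2 fell by 18.5% in farnesol EAE (log2 -0.30 ± 0.05, edgeR adjusted p = 2.52e-05), by 15.8% in vehicle EAE (-0.25 ± 0.05, adjusted p = 0.000305) and by 16.3% in untreated EAE (-0.26 ± 0.05, adjusted p = 0.000285). Scd1 changed by -0.27 ± 0.07, -0.23 ± 0.07 and -0.32 ± 0.07, but reads shared between these close paralogs make the split between them uncertain.

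Fads1 (ENSMUSG00000010663, chr19:10182888-10196877) and Fads2 (ENSMUSG00000024665, chr19:10062765-10101746) desaturate long polyunsaturated fatty acids and lie close together in the genome. Fads1 measured 213 to 249 CPM (median 237) in farnesol EAE, 224 to 260 CPM (median 228) in vehicle EAE, 219 to 250 CPM (median 234) in untreated EAE and 250 to 302 CPM (median 270) in naive brain. All farnesol libraries and 8 of 9 libraries in each of the other EAE groups lay below every naive library. Its log2 change was -0.22 ± 0.04 in farnesol EAE (edgeR adjusted p = 5.45e-05), -0.21 ± 0.04 in vehicle EAE (adjusted p = 0.000126) and -0.23 ± 0.04 in untreated EAE (adjusted p = 8.75e-05). Fads2 measured 88.2 to 106 CPM (median 98.9) in farnesol EAE, 87.7 to 113 CPM (median 99.4) in vehicle EAE, 94.8 to 118 CPM (median 102) in untreated EAE and 107 to 143 CPM (median 120) in naive brain. Farnesol libraries alone did not overlap the naive ones, and 6 of 9 libraries in each of the other EAE groups lay below them. The Fads2 change was -0.29 ± 0.05 in farnesol EAE (adjusted p = 7.62e-05), -0.27 ± 0.05 in vehicle EAE (adjusted p = 0.000226) and -0.20 ± 0.05 in untreated EAE (adjusted p = 0.00706).

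Acly, which supplies cytosolic acetyl-CoA, changed by -9.1%, -10.3% and -9.08% in farnesol, vehicle and untreated EAE. Acaca, which makes malonyl-CoA, changed by -10.4%, -14.9% and -11.1%. Acly measured 198 to 243 CPM in farnesol EAE, 204 to 232 CPM in vehicle EAE, 199 to 243 CPM in untreated EAE and 220 to 262 CPM in naive brain, so that the ranges overlapped. The change of Fasn in untreated EAE was -0.16 ± 0.06 and did not pass (edgeR adjusted p = 0.0518). Untreated replicate 1 was the high library, at 394 CPM against 260 to 309 CPM in the other untreated libraries. Without it the change was -0.22 (adjusted p = 0.00205), and leaving out naive replicate 1 or 8 gave -0.18 each (adjusted p = 0.0371 and 0.0324).

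The sterol and fatty acid branches had median levels by library close to each other in every EAE group. Medians of the single-gene edgeR changes were -0.32 and -0.24 in farnesol, -0.25 and -0.22 in vehicle and -0.28 and -0.18 in untreated EAE. In each library the level of a branch was taken as the median, over its genes, of the log2 difference from the naive mean. The sterol level was -0.64 to -0.06 (median -0.25) in farnesol EAE, -0.31 to -0.13 (median -0.22) in vehicle EAE, -0.39 to -0.16 (median -0.27) in untreated EAE and -0.10 to 0.09 in naive brain. The fatty acid level was -0.32 to -0.10 (median -0.23) in farnesol EAE, -0.30 to -0.14 (median -0.19) in vehicle EAE, -0.26 to -0.09 (median -0.21) in untreated EAE and -0.12 to 0.15 in naive brain. Within a library the sterol level minus the fatty acid level had medians of -0.03, -0.03 and -0.09 in farnesol, vehicle and untreated EAE and -0.02 in naive brain, with ranges that overlapped throughout. As the members were chosen with results known, these levels carry no test. Single sterol enzymes ranged from -0.44 to 0.16 in farnesol EAE against naive brain, where single fatty acid enzymes ranged from -0.30 to -0.14.

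**Figure D3:**
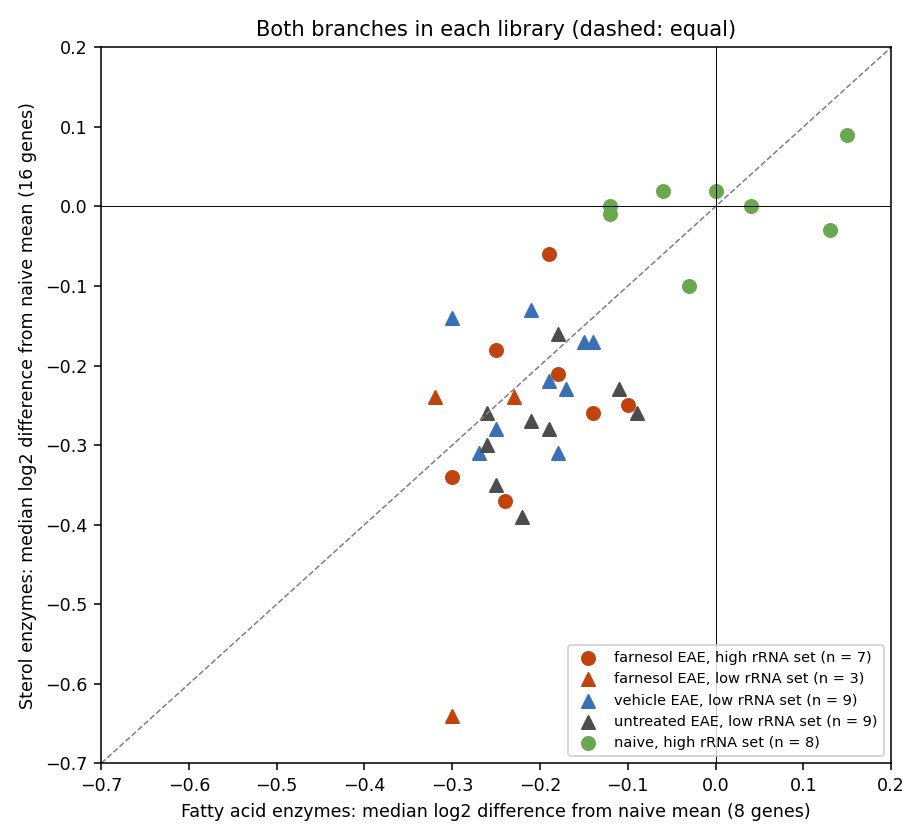
Each point is a library, with the fatty acid branch level on the x axis and the sterol branch level on the y axis (median log2 difference from the naive mean over 8 and 16 genes); colours are groups, circles the high rRNA set and triangles the low rRNA set, and the dashed line marks equal shifts. EAE libraries lie below and left of most naive ones near the line, and farnesol replicate 1 lies lowest, at -0.64 for sterol genes and -0.30 for fatty acid genes.

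Farnesol replicate 1 stood furthest out on the sterol branch. It held the lowest value of its group for 11 of the 16 sterol enzymes. Among the 8 fatty acid enzymes, farnesol replicate 2 was lowest for 4 and replicate 1 for 3, and their fatty acid levels were -0.32 and -0.30. Its infiltrating leukocyte genes summed to 281 CPM, inside the farnesol range of 68.3 to 630 CPM, and its astrocyte and oligodendrocyte genes to 4345 and 6214 CPM, also inside their ranges. Without this library 10 sterol and 8 fatty acid enzymes still fell in farnesol EAE, with medians of -0.27 and -0.23. The median coefficient of variation between libraries was 10.7% for sterol enzymes in farnesol EAE, 8.74% in vehicle EAE, 7.81% in untreated EAE and 6.34% in naive brain. For regulators it was 10.6%, 7.12%, 10.2% and 5.77% in the same order, and for fatty acid enzymes 6.51%, 5.6%, 7.76% and 8.17%.

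**Figure D4:**
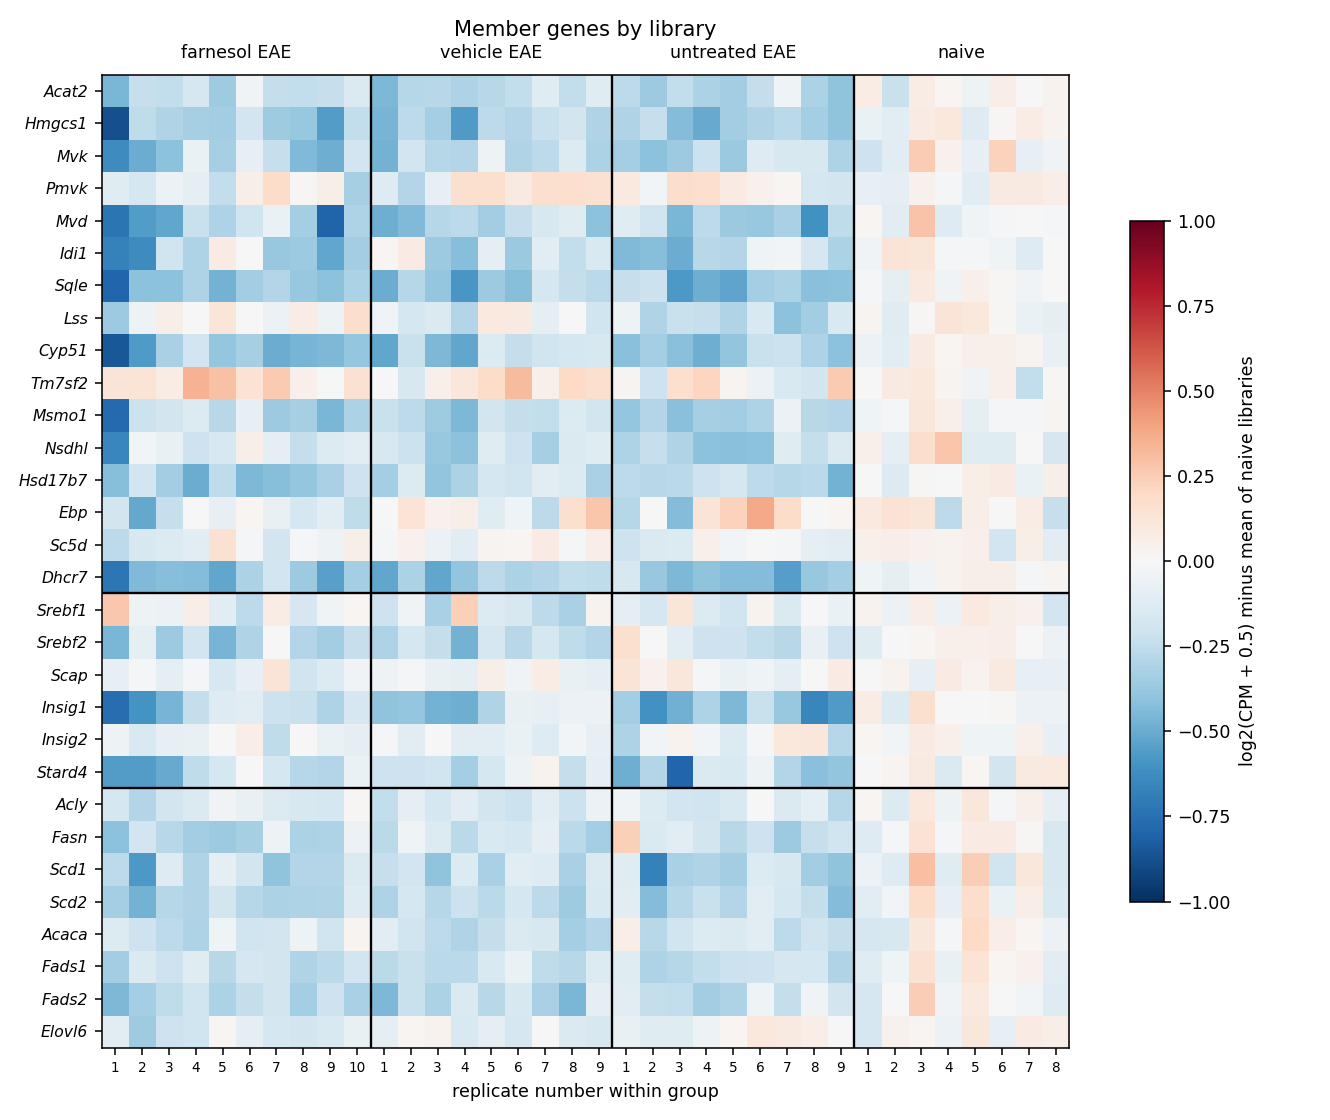
Colour gives log2(CPM + 0.5) minus the mean of the naive libraries, for each member (rows: sterol enzymes, regulators, fatty acid enzymes, split by lines) in each library (columns, by group and replicate number); blue is lower and red higher. EAE columns are mostly blue for Acat2, Hmgcs1, Mvk, Mvd, Sqle, Cyp51, Msmo1, Hsd17b7, Dhcr7 and the fatty acid rows, Pmvk and Tm7sf2 are mostly pale or red, and farnesol replicate 1 is the darkest column among sterol rows.

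Counted library by library against naive brain, 7 of the 30 members lay below every naive library in all 10 farnesol libraries (Hmgcs1, Sqle, Cyp51, Hsd17b7, Dhcr7, Fads1 and Fads2), where 1.59% of all genes tested did. In vehicle EAE 6 members did so (Hmgcs1, Sqle, Cyp51, Msmo1, Dhcr7 and Srebf2), where 3.45% of all genes did. In untreated EAE 6 did (Hmgcs1, Sqle, Cyp51, Hsd17b7, Dhcr7 and Insig1), where 1.03% of all genes did. Hmgcs1, Sqle, Cyp51 and Dhcr7 were separated from naive brain in each EAE group. As the members were chosen with results known, these counts carry no test.

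Further genes of the same pathways were counted in the same way, from lists written with earlier results of these data known. Of 10 other sterol genes, 6 fell in farnesol EAE, 3 in vehicle EAE and 5 in untreated EAE, and none rose. Of all genes tested, 16.3%, 15.2% and 11.3% fell and 17.9%, 16.3% and 13.6% rose in these comparisons. The median log2 changes of the 10 were -0.19, -0.11 and -0.13. Fdft1, the squalene synthase, changed by -0.26 ± 0.05, -0.22 ± 0.05 and -0.26 ± 0.05 in farnesol, vehicle and untreated EAE, and all of these passed. Npc1, which exports cholesterol from lysosomes, fell by 0.22 ± 0.05 and 0.19 ± 0.05 on the log2 scale in farnesol and vehicle EAE. Tmem97, a membrane protein that binds NPC1, fell by 0.35 ± 0.08 in untreated EAE. Means were below naive brain in the other EAE groups too. Npc1 averaged 77.1 ± 7.45 CPM in untreated EAE against 89.9 ± 7.58 CPM in naive brain (SD). Tmem97 averaged 12.2 ± 1.94 and 12.8 ± 1.13 CPM in farnesol and vehicle EAE against 14.5 ± 0.798 CPM. Fdps, the synthase of farnesyl diphosphate, was counted at only 0.412 to 2.87 CPM in farnesol EAE, 0.901 to 1.5 CPM in vehicle EAE, 0.45 to 1.47 CPM in untreated EAE and 0.41 to 1.68 CPM in naive brain, against 60.5 to 100.0 CPM for its neighbour in the pathway Fdft1 across all groups. How reads shared with near-identical copies were counted is not given, so its level is uncertain.

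Of 12 other genes of the SREBP machinery, 4 fell in farnesol EAE, 2 in vehicle EAE and 2 in untreated EAE, where 16.3%, 15.2% and 11.3% of all genes fell. The median log2 changes of the 12 were -0.01, 0.01 and -0.02, close to those of all genes. Pgrmc1, a heme-binding membrane protein, changed by -0.20 ± 0.06, -0.23 ± 0.06 and -0.20 ± 0.06 in farnesol, vehicle and untreated EAE, and all of these passed. Mbtps2, a protease that cleaves SREBPs, fell in farnesol EAE (-0.19 ± 0.06, edgeR adjusted p = 0.0114), while Mbtps1, which makes the first of these cleavages, did not pass in vehicle EAE (0.07 ± 0.03, adjusted p = 0.0948). Nr1h2, a liver X receptor that senses oxysterols, rose in untreated EAE (0.14 ± 0.05, edgeR adjusted p = 0.0236). Means moved the same way in the other EAE groups. Mbtps2 averaged 32.4 ± 2.86 and 31.1 ± 2.68 CPM in vehicle and untreated EAE against 34.1 ± 2.44 CPM in naive brain (SD). Nr1h2 averaged 60.1 ± 5.89 and 60.7 ± 2.98 CPM in farnesol and vehicle EAE against 57.2 ± 2.81 CPM.

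Of 26 other fatty acid genes, 25 were tested and Scd4 was too low. In farnesol EAE 12 fell and 1 rose, in vehicle EAE 8 fell and in untreated EAE 8 fell. Of all genes tested, 16.3%, 15.2% and 11.3% fell and 17.9%, 16.3% and 13.6% rose in these comparisons. The median log2 changes of the 25 were -0.12, -0.07 and -0.08. Hacd3, a dehydratase of chain elongation, changed by -0.16 ± 0.03, -0.14 ± 0.03 and -0.14 ± 0.03 in farnesol, vehicle and untreated EAE. Acsl1, which activates fatty acids with CoA, changed by -0.15 ± 0.04, -0.16 ± 0.04 and -0.22 ± 0.04, and all of these passed. Tecr, the last reductase of elongation, fell in farnesol EAE (-0.20 ± 0.04). The acyl-CoA synthetase Acsl4 fell in farnesol (-0.22 ± 0.05) and vehicle EAE (-0.23 ± 0.05), and Acsl6, another, in untreated EAE (-0.17 ± 0.04). Means were below naive brain in the other EAE groups too. Tecr averaged 347 ± 19.7 and 348 ± 13.5 CPM in vehicle and untreated EAE against 382 ± 22 CPM in naive brain (SD). Acsl6 averaged 254 ± 14.5 and 254 ± 11.8 CPM in farnesol and vehicle EAE against 278 ± 10.4 CPM. Acsl4 averaged 83.9 ± 7.45 CPM in untreated EAE against 92.2 ± 4.63 CPM. The gene that rose in farnesol EAE, named after its value was seen, was Mlxipl, a glucose-responsive transcription factor of lipogenesis (0.53 ± 0.17, edgeR adjusted p = 0.0167).

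Marker genes of brain and blood cell types were measured in the same libraries. The 6 astrocyte genes summed to 4139 to 4594 CPM in farnesol EAE, 3894 to 4479 CPM in vehicle EAE, 3847 to 4504 CPM in untreated EAE and 4666 to 5987 CPM in naive brain, so every EAE library lay below every naive one. Much of that sum was Slc1a2, a glutamate transporter, which measured 2047 to 2673 CPM in farnesol EAE, 1728 to 2181 CPM in vehicle EAE, 1799 to 2366 CPM in untreated EAE and 2471 to 3245 CPM in naive brain. The other 5 genes summed to 1653 to 2283 CPM, 2069 to 2457 CPM and 1707 to 2418 CPM in farnesol, vehicle and untreated EAE and to 1831 to 2741 CPM in naive brain, ranges that overlapped. Of the 6, 3 fell in farnesol EAE, 1 in vehicle EAE (Slc1a2) and 3 in untreated EAE. Gjb6, a gap junction protein, had positive changes that did not pass, at 0.18 ± 0.08, 0.21 ± 0.09 and 0.22 ± 0.09 in the same order. These genes were singled out after their values were seen. The 8 oligodendrocyte genes summed to 5418 to 7957 CPM in farnesol EAE, 5806 to 8188 CPM in vehicle EAE, 4458 to 7869 CPM in untreated EAE and 6579 to 8460 CPM in naive brain, ranges that overlapped, and 2 of 8 fell in each EAE group. The 6 neuron genes summed to 4577 to 5636 CPM, 4542 to 5333 CPM and 4897 to 6020 CPM in farnesol, vehicle and untreated EAE and to 5587 to 6307 CPM in naive brain, and 6, 4 and 2 of them fell. Of the 4 oligodendrocyte precursor genes, 1, 2 and 1 fell, with median log2 changes of -0.17, -0.19 and -0.16 in the same order. Among the 4 microglia genes, 0 were called in farnesol EAE, 1 fell in vehicle EAE and 2 rose in untreated EAE. The 3 hemoglobin genes measured for blood passed in no comparison with naive brain. Of all genes tested, as given above, 16.3%, 15.2% and 11.3% fell and 17.9%, 16.3% and 13.6% rose in these comparisons. The 8 infiltrating leukocyte genes summed to 68.3 to 630 CPM in farnesol EAE, 51.3 to 1027 CPM in vehicle EAE and 67.7 to 467 CPM in untreated EAE, against 12.1 to 18.0 CPM in naive brain, and all 8 rose in each EAE group. None of these genes was at 0 throughout a group. Their part in the falls of the sterol and fatty acid genes was not tested.

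Between the EAE groups, 1 of the 30 members passed the test, in 1 of the 3 comparisons. In farnesol against vehicle EAE, the comparison that isolates the compound from its carrier, none of the 30 members was called by edgeR, DESeq2 or limma-voom, where 0.0108% of all genes tested fell and 0.0814% rose. By edgeR, 3 of the 30 members and 5.59% of all genes had an unadjusted p below 0.05. Those 3 were Cyp51 (63.1 ± 7.4 CPM in farnesol EAE and 70.2 ± 7.39 CPM in vehicle EAE, log2 -0.15 ± 0.06, edgeR adjusted p = 0.664), Hsd17b7 (-0.12 ± 0.05, adjusted p = 0.702) and Ebp (-0.19 ± 0.08, adjusted p = 0.761). The median change was -0.08 for sterol enzymes, with 12 of 16 negative, -0.02 for regulators and -0.03 for fatty acid enzymes. The 95% intervals of single members reached at most from -0.36 to 0.22 on the log2 scale, and for fatty acid enzymes from -0.19 to 0.17. Farnesol and vehicle libraries lay mostly in different rRNA sets, and inside the low set, with 3 and 9 libraries, again no member was called and the median was -0.11. Without farnesol replicate 1 the median over all 30 members was -0.03, against -0.05 with it.

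In vehicle against untreated EAE, both wholly inside the low rRNA set, no member was called by edgeR, DESeq2 or limma-voom, where 0.0217% of all genes fell and 0% rose. An unadjusted p below 0.05 was found for 4 of the 30 members and for 8.26% of all genes. The 4 were Lss (0.16 ± 0.06, edgeR adjusted p = 0.436), Insig1 (0.19 ± 0.08, adjusted p = 0.47), Srebf2 (-0.14 ± 0.06, adjusted p = 0.492) and Stard4 (0.16 ± 0.08, adjusted p = 0.583). The intervals of all members lay between -0.25 and 0.34.

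In farnesol against untreated EAE 1 member was called, Lss, which was higher in farnesol EAE (0.24 ± 0.06, edgeR adjusted p = 0.0215), where 0.911% of all genes fell and 0.96% rose. Lss lay above every untreated library in 8 of 10 farnesol libraries, and the 95% interval of the change was 0.12 to 0.35. The call was lost under 8 of 30 alternatives. It was lost with the replicate number as a block (0.21, adjusted p = 0.0723), with the library set as a term (0.13, adjusted p = 0.482), inside the low rRNA set with 3 and 9 libraries (0.12, adjusted p = 0.66), with only these groups in the fit (0.24, adjusted p = 0.0798), without the libraries that carried Sbp (0.26, adjusted p = 0.0805). It was also lost without untreated replicate 8 (0.22, adjusted p = 0.0538), farnesol replicate 8 (0.23, adjusted p = 0.05) or farnesol replicate 10 (0.22, adjusted p = 0.0524). Over the 30 alternatives the adjusted p ran from 0.00323 to 0.66. Elovl6 came next, at 60.0 to 77.6 CPM (median 68.6) in farnesol EAE and 70.7 to 82.9 CPM (median 77.4) in untreated EAE, ranges that overlapped. Its change of -0.15 ± 0.04 did not pass by edgeR (adjusted p = 0.0615) and passed by DESeq2 (-0.15, adjusted p = 0.0397). It also passed by edgeR without untreated replicate 3 (-0.16, adjusted p = 0.0379), without farnesol replicate 5 (-0.17, adjusted p = 0.0321) or without the libraries that carried Sbp (-0.22, adjusted p = 0.0317). Srebf2 (-0.14 ± 0.05), Ebp (-0.20 ± 0.08), Scap (-0.08 ± 0.04) and Tm7sf2 (0.15 ± 0.06) also had an unadjusted p below 0.05 and did not pass after adjustment, where 14.4% of all genes had an unadjusted p below 0.05.

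**Figure D5:**
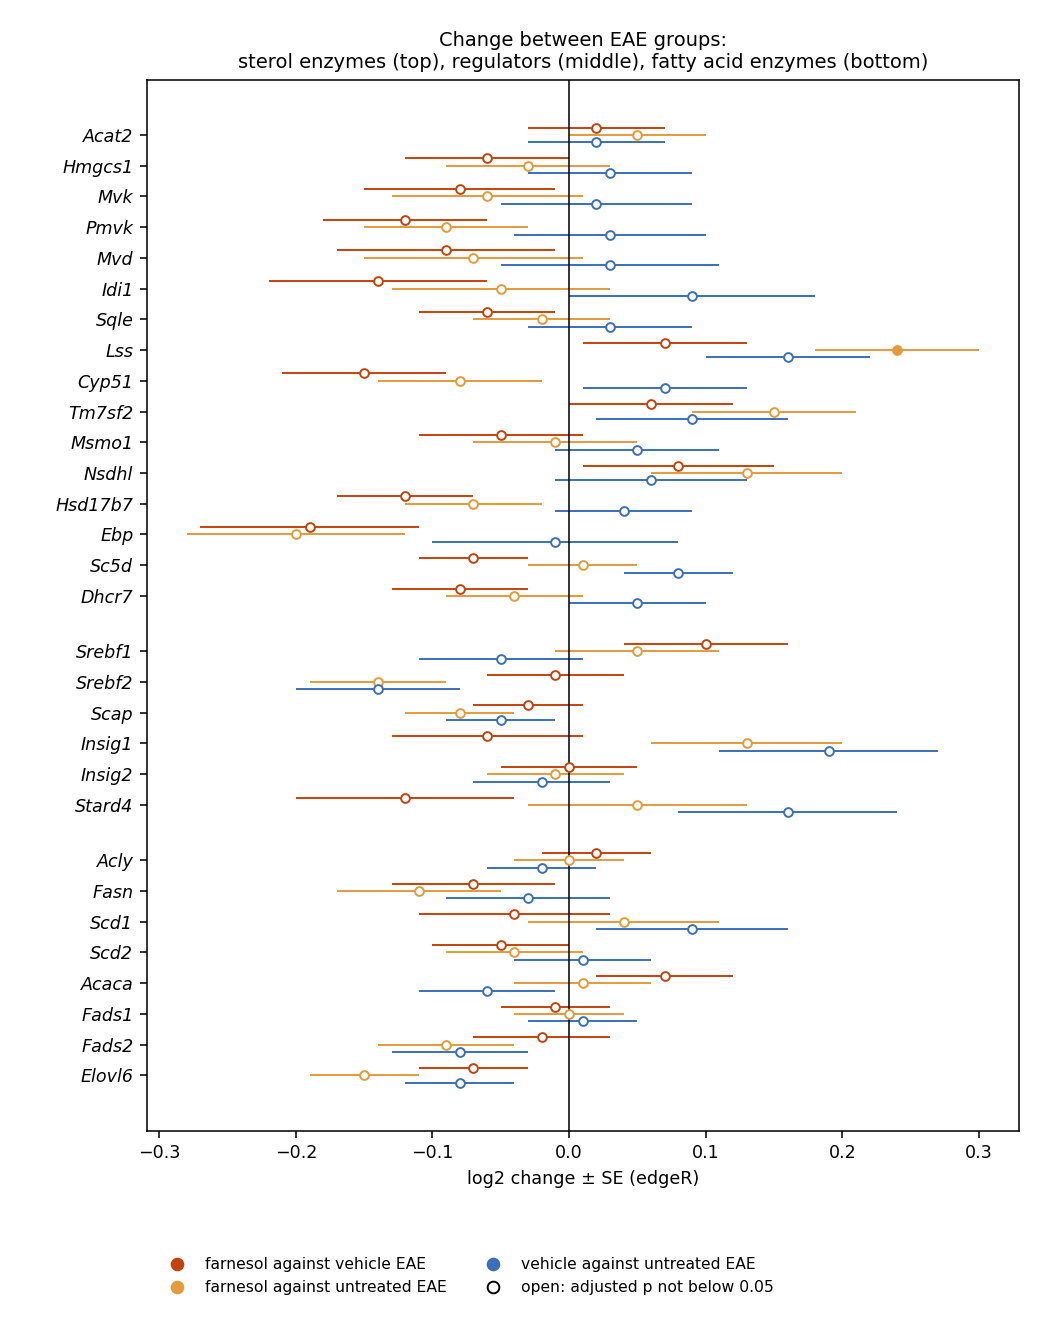
Log2 change of each member between EAE groups (x axis, edgeR) with its SE as a bar, for farnesol against vehicle EAE (dark orange), farnesol against untreated EAE (light orange) and vehicle against untreated EAE (blue); filled points passed at an adjusted p below 0.05. The 1 filled point is Lss in farnesol against untreated EAE, and the other points lie between -0.20 and 0.19.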

How the data were processed

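RNA from whole brain was sequenced in 36 libraries. The authors deposited 1 table of raw read counts per gene. They used STAR 2.5 and mm10, per the submitters' processing notes, and the labels' protocols also mention Kallisto. Not given in the sources used here: the counter, the annotation release and strandedness. Gene symbols and coordinates came from GENCODE M21 (GRCm38) by gene identifier, which named 99.94% of counts.

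Counts were filtered with filterByExpr (minimum count 10, minimum total 15), leaving 18438 genes, scaled by TMM and fitted with edgeR 4.0.16 (R 4.3.3; glmQLFit, glmQLFTest), 1 mean per group over all 36 libraries. P-values were adjusted by Benjamini-Hochberg over all genes tested, and an adjusted p below 0.05 was called. SE was computed as log2 change over the root of the F statistic, and 95% intervals are 1.96 SE. CPM used TMM-scaled library sizes, and branch levels a pseudocount of 0.5. Totals of 14.71 M to 24.21 M counts per library set the precision.

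Members and lists were chosen with earlier results of these data known. Every member is named. Full values are given for the 4 sterol enzymes, 3 regulators and 3 fatty acid enzymes of smallest p against naive brain, and up to 3 genes are named per other list and comparison; genes named outside this rule are said to be so or stand beside a result that turns on them. Some genes that the rule would name are not reported here. Alternatives were DESeq2 1.42.0, limma-voom (limma 3.58.1, sample weights), RLE scaling, other filters, only the groups compared, a replicate block, the rRNA set (CT010467.1 above or below 4000 CPM) as a term or alone, and leaving out libraries. Promoter sequences are from RefSeq.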

Additional observations from a re-analysis of the deposited data

Results flagged for a closer look

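In 12 of 120 combinations of a member and a group, 1 library lay far from the others by Dixon's criterion at the 95% level, where chance gives about 1 in 20. Farnesol replicate 1 was the low library for Sqle (46.3 CPM, with 57.8 to 65.4 CPM in the other farnesol libraries), Lss (28.8 CPM, others 35.7 to 42.1 CPM) and Nsdhl (15 CPM, others 20.1 to 24.8 CPM). Vehicle replicate 4 was low for Srebf2 (198 CPM, others 222 to 244 CPM). Untreated replicate 1 was high for Fasn (394 CPM, others 260 to 309 CPM) and Acaca (101 CPM, others 79 to 88.8 CPM), untreated replicate 7 was high for Acat2 (42.3 CPM, others 32.9 to 37 CPM) and Msmo1 (85.6 CPM, others 66.5 to 73.5 CPM), and untreated replicate 9 was low for Hsd17b7 (21.7 CPM, others 24.7 to 26.8 CPM). In naive brain, replicate 2 was low for Acat2 (37.3 CPM, others 42.1 to 46 CPM), replicate 3 high for Mvd (29.2 CPM, others 21.9 to 24.3 CPM) and replicate 7 low for Tm7sf2 (14.2 CPM, others 16.6 to 18.2 CPM). Leaving out any 1 of the libraries of a comparison removed none of the 21, 19 and 20 falls called against naive brain in farnesol, vehicle and untreated EAE.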

How the results depend on the processing

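The counts of members called against naive brain stayed within 1.5 times of the reported ones under RLE scaling, DESeq2, limma-voom, both other filters, a fit without the other groups, the replicate block and without libraries low in cerebellar genes or carrying Sbp. Without those carrying Sbp, 15 of the 20 falls in untreated EAE and 16 of the 19 in vehicle EAE were still called. Lost were Acly, Fads2, Idi1, Mvk and Nsdhl in untreated EAE and Insig1, Nsdhl and Scd1 in vehicle EAE, all still negative. With no count filter, Acly and Idi1 were lost in untreated EAE. In farnesol EAE, Tm7sf2 was called as a rise with RLE scaling, with the stricter filter and in the fit without the other groups. With the library set as a term, 0 members, 0 sterol enzymes and 0 fatty acid enzymes were called in vehicle and in untreated EAE, against 18 members in farnesol EAE. There the changes of Insig1 in vehicle EAE (0.16) and Stard4 in untreated EAE (0.04) turned positive. Shares of all genes called with this term are not given here, so these counts are no result about the members. Inside the high rRNA set 5 fatty acid enzymes were called in farnesol EAE, where 13.3% of all genes tested fell. In farnesol against untreated EAE the 1 called member became 0 with the replicate block, the set as a term, only the groups compared or the low rRNA set, and 2 by DESeq2. The cause was not tested.

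Leaving out 1 library at a time gave 21 to 22 members in farnesol, 19 to 20 in vehicle and 20 to 22 in untreated EAE against naive brain, 0 to 2 in farnesol against untreated EAE, and 0 in the other comparisons. Sterol enzymes called were 10 to 11, 10 and 12, and fatty acid enzymes 8, 7 and 6 to 7, in the same order of EAE groups. A pseudocount of 2 moved no branch median by more than 0.02.

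Replicate numbers named libraries within a group. Deviations from the group mean correlated at a median of 0.01 over 51 pairs sharing a number and 0.002 over 434 other pairs, and the replicate block left 21, 19 and 20 members called against naive brain.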
